A study of Mus musculus with 3 samples.

Results

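The cells described here were mouse fibroblasts of the *Tcf21* and *Col15a1* type, which were chosen by a rule on their own values. A cell was gated as a fibroblast when *Col1a2* or *Col3a1* was above 0, when *Cdh1* and *Cldn4* were both 0, and when fewer than 3 of the muscle genes *Actg2*, *Des*, *Myl9*, *Tpm2*, *Lmod1* and *Tnnt2* were above 0. A gated cell was a member when its mean value of *Lamc3*, *Mmp2*, *Col15a1*, *Tcf21* and *Sfrp2* was above 0 and greater than its mean of *Dpt*, *Ptx3*, *Lum*, *Tnfaip6* and *Col5a1*. The rule found 1613 members among 14573 cells. The mirror of the rule, with the second mean greater, gave the *Dpt* and *Lum* type, which is the comparison population throughout.

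The study took 1 droplet single cell library from each of 3 tissues labelled normal, namely male urogenital sinus at E18.5, prostate at P14 and prostate at P35. Neither a strain, a genotype nor a treatment of these animals is given in the labels, while the study's methods place its mice on mixed C57BL/6 and 129S1/SvImJ backgrounds. Cell barcodes end in 1, 2 or 3, and the labels do not say which ending belongs to which tissue. The cell number of the smallest set equals the one the study gives for the urogenital sinus, whereas those of the other sets match none it gives, and sets were not assigned from this. Values are therefore given for barcode sets 1, 2 and 3 side by side, with no comparison between ages and no test. Every interval in parentheses is an exact 95% interval for counting error only.

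Fibroblasts secrete the fibrillar collagens, proteoglycans and elastic fibre proteins of connective tissue. In many organs they fall into a type that lies close to parenchyma and carries basement membrane genes, and a type of the outer, fibre-rich sheath around vessels and organs. In the prostate and its embryonic precursor the mesenchyme instructs epithelial budding and growth through secreted signals such as Wnt, BMP, FGF and IGF ligands and through inhibitors of them. *Tcf21* encodes a basic helix-loop-helix transcription factor of mesenchyme, *Col15a1* a collagen at the edge of basement membranes, *Lamc3* a laminin chain, *Mmp2* a gelatinase and *Sfrp2* a secreted Wnt modulator.

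Sets 1, 2 and 3 had 766, 5350 and 8457 cells with medians per cell of 19357, 1738 and 1788 UMIs (unique molecular identifiers, by which captured mRNA molecules are counted). Rates are given as CPM, the UMIs of a gene per 1000000 UMIs of the cells. Sets 1 and 2 shared 1 barcode, sets 1 and 3 shared 0, and sets 2 and 3 shared 13. The gate kept 251, 1534 and 2715 cells. Its limit on muscle genes removed 49.7%, 52.2% and 37.2% of the collagen-positive cells without *Cdh1* and *Cldn4*, and the removed cells were deeper, with medians of 21998, 1700 and 1769 UMIs against 14084, 1172 and 1309 in the gated cells.

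Members numbered 174 in set 1, 435 in set 2 and 1004 in set 3. They made up 69.3% (63.2 to 75.0) of gated cells in set 1, 28.4% (26.1 to 30.7) in set 2 and 37.0% (35.2 to 38.8) in set 3. The *Dpt* and *Lum* type held 62, 678 and 1283 cells, and 11, 294 and 277 gated cells had none of the 10 markers. Median depths of members and of the *Dpt* and *Lum* type were close within each set, at 13988 against 15927.5 UMIs, 1161 against 1239 and 1401 against 1321. Shares of cells were not compared between sets, whose depths differed.

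Membership rested on little RNA in the shallow sets. Only 1 of the 5 markers had a UMI in 14.9% of members in set 1, 57.9% in set 2 and 26.0% in set 3. A single marker UMI decided 4.02%, 41.8% and 15.6% of members, and the median member carried 23.5, 2 and 3 marker UMIs. The score is a range without a gap at 0: 19, 6 and 23 members lay within 0.1 natural log units inside the limit, and 14, 137 and 175 gated cells with a marker lay within 0.1 outside it, ties included. The nearest member inside had a margin of 0.0116, 0.0144 and 0.0164, and the nearest cell of the *Dpt* and *Lum* type had −0.000713, −0.0429 and −0.0112. The *Dpt* and *Lum* score had a median of 0.336 in members of set 1 and of 0 in members of sets 2 and 3.

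**Figure D1:**
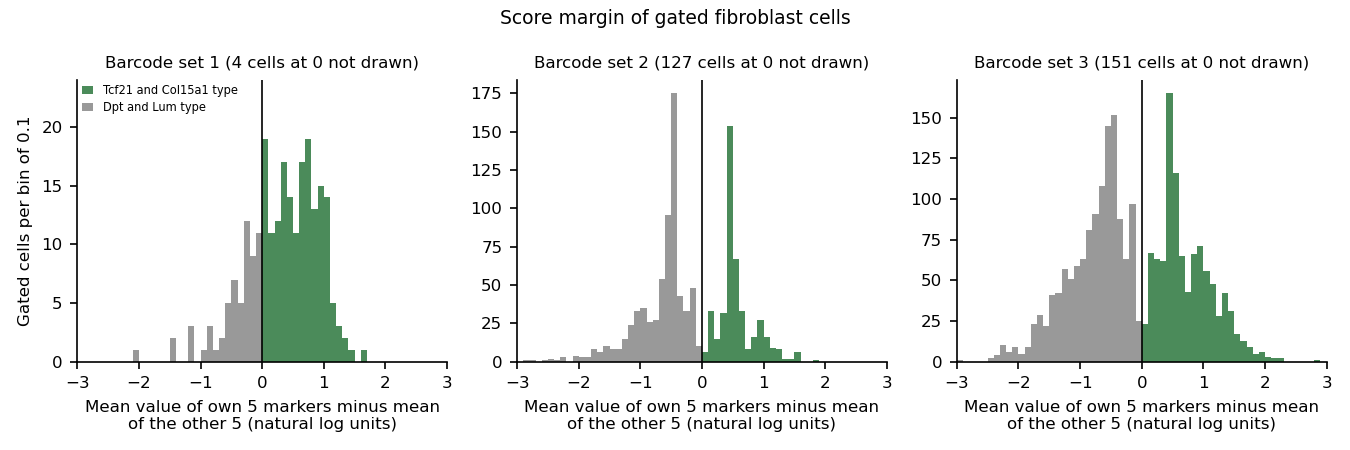
Score margin of gated cells with at least 1 of the 10 markers, per barcode set. The x axis is the mean value of the 5 type markers minus the mean of the other 5, in natural log units, the y axis counts cells per bin of 0.1, and cells to the right of the line at 0 are the 174, 435 and 1004 members. Cells with equal means (4, 127 and 151), which belong to neither type, are not drawn. Among the cells drawn, the tallest bins of sets 2 and 3 stand away from 0 on either side.

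As the rule fixes, the type markers were higher in members, which is given as a description. *Mmp2* was the marker found in most members of sets 2 and 3, at 63.0% and 71.1%, and in 80.5% of set 1. *Sfrp2* had a UMI in 89.7% of members in set 1, in 12.9% in set 2 and in 21.5% in set 3. *Tcf21* was seen in 68.4%, 26.0% and 36.3%, *Col15a1* in 29.3%, 48.5% and 66.3%, and *Lamc3* in 10.9%, 2.53% and 21.2%. Set 1 members were thus mainly cells with *Sfrp2*, *Mmp2* and *Tcf21*, and set 3 members mainly cells with *Mmp2* and *Col15a1*. In epithelial cells, taken as cells with *Cdh1* and *Cldn4* both above 0 and with medians of 45686, 5389 and 5862 UMIs, *Mmp2* had a UMI in 21.4%, 11.4% and 5.82% of cells despite their greater depth. Muscle-type cells, those without *Cdh1* and *Cldn4* and with 3 or more of the muscle genes, carried some of the markers as much as members did. *Sfrp2* had a UMI in 90.4%, 27.0% and 18.8% of them, at 222 CPM in set 2 against 111 in members, and *Tcf21* in 75.3%, 16.6% and 15.6%. *Mmp2* and *Col15a1* were seen in 86.1% and 30.3% of muscle-type cells in set 1, and in 14.6% and 8.76% in set 2.

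Each marker was then measured in cells chosen by the other 4, so that the choice had not used it. Ratios of UMI rates are given as log2 of the chosen cells over the *Dpt* and *Lum* type of the same choice. *Mmp2* was higher in the chosen cells of every set, at 0.66, 0.44 and 0.78, with intervals that excluded 0. *Lamc3* had 40 UMIs against 0 in set 1, a log2 ratio of at least 1.83 when 3 UMIs are allowed for the 0. In set 2 *Lamc3* was at 1.51 (−0.29 to 3.63) and in set 3 at 2.72 (2.21 to 3.27). *Sfrp2* was at 0.51, at 0.43 (−0.22 to 1.08) and at 0.77.

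The genes that give the type its name were less even over the sets. *Tcf21* was higher in the chosen cells of set 1, at 1.56, but in set 2 it was at 0.15 (−0.28 to 0.57) and in set 3 at 0.11 (−0.09 to 0.30), so that the intervals include 0. *Col15a1* was higher in sets 2 and 3, at 0.97 and 0.88, while in set 1 it was at −0.40 (−0.84 to 0.05). Without cells that carry markers of other lineages, described below, the *Col15a1* value of set 1 was 0.93.

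**Figure D2:**
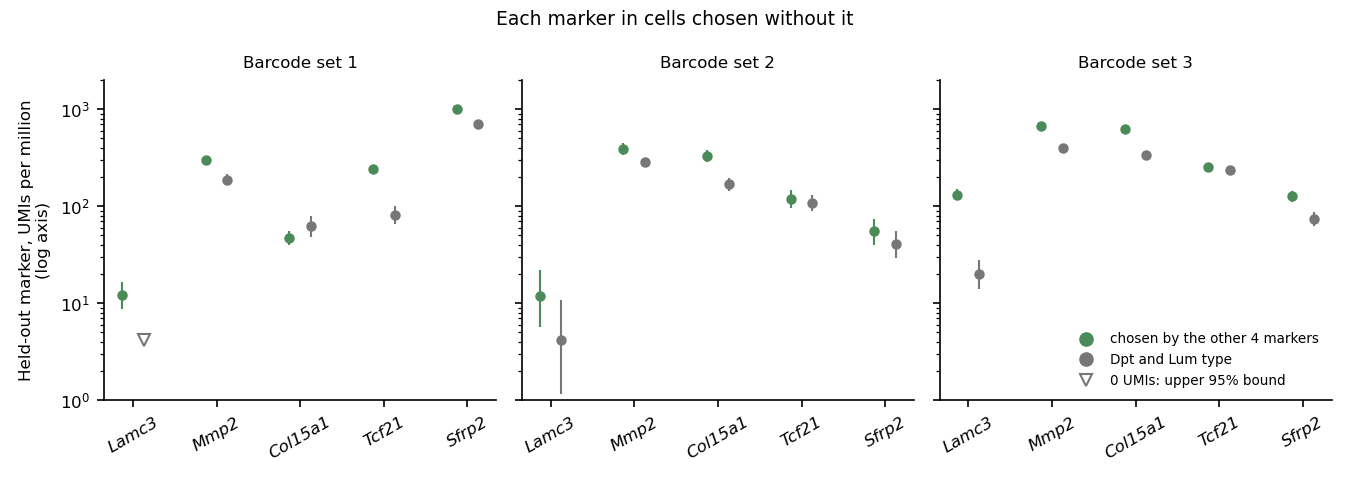
Each of the 5 markers in cells chosen by the other 4 (green) and in the *Dpt* and *Lum* type (grey), as UMIs per 1000000 UMIs on a log axis, with 95% intervals for counting error. *Mmp2* and *Tcf21* lay higher in green in all 3 sets, but the intervals of *Tcf21* overlapped in sets 2 and 3. *Col15a1* lay higher in green in sets 2 and 3.

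Of the fibroblast markers outside the rule, *Dcn* was present in most members. *Dcn* encodes the collagen-binding proteoglycan decorin and had a UMI in 79.3%, 77.2% and 90.6% of members. *Pdgfra*, a receptor of mesenchymal cells, had one in 61.5%, 23.2% and 18.03%, against 8.28%, 6.66% and 1.19% of the deeper epithelial cells. Muscle-type cells carried both genes, with *Dcn* in 89.2%, 66.3% and 65.4% of them and *Pdgfra* in 62.2%, 9.08% and 2.71%. None of *Dcn*, *Pdgfra*, *Col6a3* and *Col5a2* was seen in 9, 50 and 65 members. For *Dcn* the epithelial cells had 1048 and 749 CPM in sets 2 and 3, against 2510 and 4301 in members, so part of its signal there is shared with cells that should lack it.

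Some members went against the label. At least 2 different markers of endothelium, leukocytes, glia or pericytes were found in 28, 27 and 46 members (16.1%, 6.21% and 4.58%) and in 19, 50 and 75 cells of the *Dpt* and *Lum* type. Of the 7 endothelial markers none was at 0 in the members of any set, and their summed rate was 659, 292 and 237 CPM, against 84.8, 101 and 122 in the *Dpt* and *Lum* type. Glial markers ran the other way, at 196, 185 and 78.8 against 1319, 332 and 259. The 10 leukocyte markers were at 276, 8.03 and 63.2 against 4.56, 6.08 and 182, with 6 of them at 0 in members of set 2, and the 5 pericyte markers at 61.0, 94.8 and 107 against 145, 70.0 and 69.0. Epithelium markers were at 30.3, 49.8 and 41.0 against 46.5, 91.2 and 54.8, mesothelium markers at 68.1, 19.3 and 42.3 against 46.5, 12.2 and 50.6, and erythroid markers at 259, 4.82 and 535 against 203, 18.2 and 112. Results below are given for all members and, where they change, without cells carrying at least 2 markers of endothelium, leukocytes, glia or pericytes. These are the cells of other lineages named below. Leaving them out keeps 146, 408 and 958 members and 43, 628 and 1208 cells of the *Dpt* and *Lum* type. This choice set no limit on markers of epithelium, mesothelium, erythroid cells, neurons or skeletal muscle. Erythroid markers then stood at 320, 1.80 and 575 CPM in members against 210, 19.7 and 120.

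To see where members lie without their own markers, gated cells of each set were clustered with all 20 genes of the rule left out. In set 2, 309 of the 435 members (71.0%) fell into 1 cluster of 674 cells, whose gene with the highest fold was *Wif1*, with neuronal genes such as *Stmn3* next, and members made up 45.8% (42.0 to 49.7) of it. In set 3, 655 of 1004 members (65.2%) fell into 1 cluster of 1117 cells led by the neuropeptide gene *Vip*, of which they were 58.6% (55.7 to 61.5). Neuronal genes made up much of the leading genes of both clusters, so 12 genes of neurons, chosen after the clusters were seen, were counted in their cells. At least 2 of the 12 had a UMI in 11 of the 674 cells and in 6 of the 1117 cells, and in 3 of the 309 and 1 of the 655 members there. Both clusters were kept in all comparisons. A second cluster of set 3, led by *Klf2* with 546 cells, held 177 members. The large clusters led by *Igf2* in set 2 and by *Sult1e1* in set 3 were 13.4% and 13.4% members and 58.6% and 75.3% *Dpt* and *Lum* type.

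Set 1 split differently. Clusters led by *Egr4* (85 cells) and by *Aldh1a3* (27 cells) were 89.4% and 96.3% members, and a cluster led by *Mfap5* (21 cells) was 85.7% *Dpt* and *Lum* type. A cluster of 57 cells whose leading genes included *Myod1* and *Myf5*, regulators of skeletal muscle, held 28 members and 27 of the 62 cells of the *Dpt* and *Lum* type. Further members of set 1 lay in clusters led by macrophage genes such as *C1qb* (24 members), by endothelial genes such as *Cdh5* (7) and by neuronal genes such as *Phox2a* (7). In the cluster led by *C1qb*, however, only 3 of the 24 members had a UMI of at least 2 leukocyte markers, and the cluster as a whole had *Dcn* at 1319 CPM and *Tcf21* at 326. All 7 members of the cluster with *Phox2a* had at least 2 of the 12 neuronal genes. The ratios of set 1 were also computed without the 5 clusters led by genes of other cell types, all cells of the cluster with *C1qb* included. This leaves 104 members and 26 cells of the *Dpt* and *Lum* type. In sets 2 and 3 the same choice left out 177 and 262 cells in all.

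**Figure D3:**
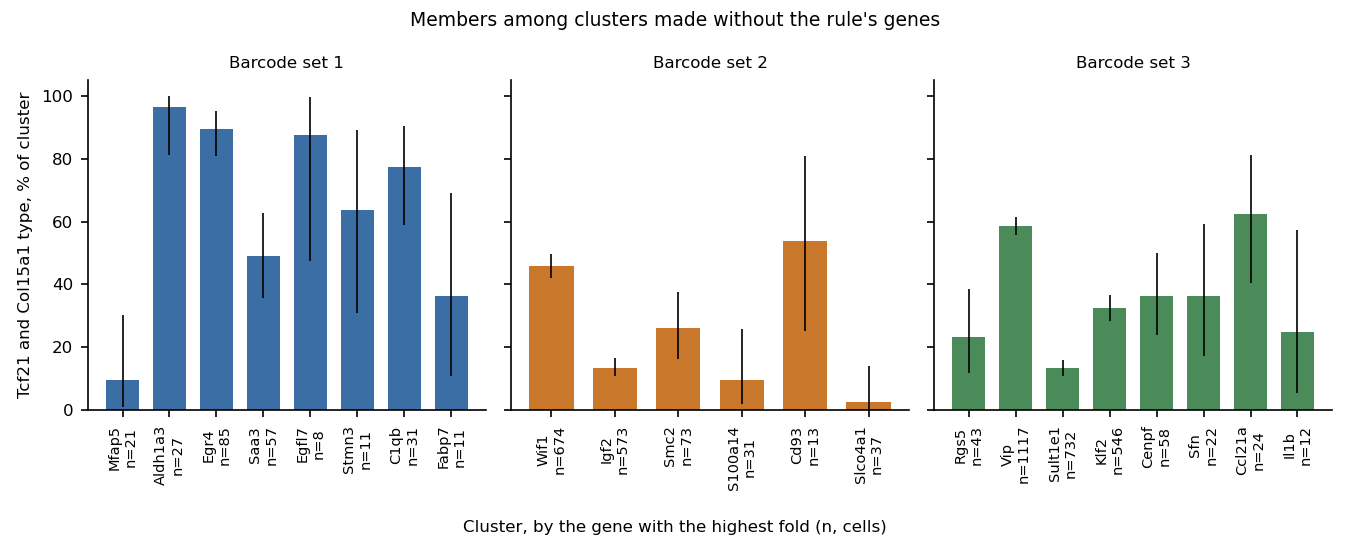
Share of members in each cluster of gated cells, in percent of the cluster with 95% binomial intervals, for clusters made without the rule's genes and labelled by the gene with the highest fold and the number of cells. Of sets 2 and 3, 1 cluster each is not drawn. Shares of the clusters drawn ran from 9.52% to 96.3% in set 1, from 2.70% to 53.8% in set 2 and from 13.4% to 62.5% in set 3.

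Members and the *Dpt* and *Lum* type were compared over 3769 genes outside the rule that had at least 20 UMIs over both types in every set. In every set 19 genes (0.504%) were past 2-fold higher in members and 13 (0.345%) past 2-fold lower. Within single sets the shares were 5.78% higher and 4.72% lower in set 1, 2.44% and 3.21% in set 2, and 2.68% and 2.79% in set 3. Without regard to size, 19.2% of genes were above 0 in every set and 13.3% below. Median log2 ratios over all genes were 0.11, −0.0032 and 0.026. Without cells carrying markers of other lineages 3485 genes remained, of which 7 (0.201%) were past 2-fold higher in every set and 9 (0.258%) lower, with 17.9% above 0 and 13.5% below.

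Vascular genes led the higher side when all members were used. *Cd93*, a receptor of endothelial cells, had 180, 34 and 70 UMIs in members and 1, 8 and 8 in the *Dpt* and *Lum* type, which gives log2 ratios of 6.01 (3.51 to 11.32), 2.75 and 3.44. *Cdh5*, the cadherin of endothelial junctions, had 370, 43 and 74 against 0, 11 and 15. *Myct1*, *Gimap6*, *Plvap*, *S1pr1*, *She*, *Flt1* and *Plxnd1* were among the 15 leading genes as well. Without cells carrying markers of other lineages *Cd93* had no more than 2 UMIs in either type of any set. *Flt1*, a VEGF receptor and one of the markers used to leave cells out, then stood at −3.13, −0.40 and −0.54. Of the leading genes, 6 of the 15 on the higher side, and 11 of the 15 on the lower side, were also among the leading 15 without these cells.

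*Wif1*, which encodes a secreted inhibitor that binds Wnt ligands, was past 2-fold higher in members of every set, with and without cells of other lineages. Members had 149, 53 and 65 *Wif1* UMIs, or 48.6, 85.2 and 42.3 CPM, and the *Dpt* and *Lum* type had 0, 33 and 12. The rate was at least 17.8-fold higher in set 1, 2.55-fold higher in set 2 and 6.70-fold higher in set 3, and log2 ratios without cells of other lineages were 3.88 (a lower bound), 1.35 and 2.87. Few members had a UMI of it, at 17.2%, 8.97% and 4.08%, against 4.83%, 12.9% and 5.59% of the deeper epithelial cells. With every cell thinned to 900 UMIs, these were 4.05%, 6.42% and 3.01% of members, and 0.690%, 2.22% and 0.962% of epithelial cells. The thinned share in the *Dpt* and *Lum* type was 0 of 62 cells in set 1, which by 3 cells allows a share of up to 4.84% and by the exact interval up to 5.78%, then 2.53% in set 2, close to the epithelial share, and 0.544% in set 3.

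Muscle-type cells also had *Wif1*, at 34.4 and 20.2 CPM in sets 2 and 3 and within 15.3 to 22.1 CPM in set 1. Their interval lay below that of members in each set. *Wif1* lies on chromosome 10 at 121034004 to 121100642 of GRCm38.p6, the assembly of mm10. The 250 bases before the transcript start that the RefSeq promoter table uses are shown for *Wif1*, as the leading secreted signal, and for the neighbours *Col4a5* and *Col4a6* described below, 5′ to 3′ on each gene's strand from RefSeq, with the letters GGGCGG (a GC box) in capitals on either strand.
*Wif1* (chr10:121033754-121034003, plus strand): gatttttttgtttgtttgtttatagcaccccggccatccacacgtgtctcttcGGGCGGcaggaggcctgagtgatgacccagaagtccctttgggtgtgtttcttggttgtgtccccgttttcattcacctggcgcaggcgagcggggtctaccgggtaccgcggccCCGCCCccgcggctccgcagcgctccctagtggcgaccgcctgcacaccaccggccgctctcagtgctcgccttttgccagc
*Col4a5* (chrX:141475169-141475418, plus strand): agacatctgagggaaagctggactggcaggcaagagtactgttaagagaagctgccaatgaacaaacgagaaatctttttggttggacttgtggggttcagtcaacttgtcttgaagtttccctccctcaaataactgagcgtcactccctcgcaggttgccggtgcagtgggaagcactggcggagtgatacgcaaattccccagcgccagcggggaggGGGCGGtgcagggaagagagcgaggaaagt
*Col4a6* (chrX:141474077-141474326, minus strand): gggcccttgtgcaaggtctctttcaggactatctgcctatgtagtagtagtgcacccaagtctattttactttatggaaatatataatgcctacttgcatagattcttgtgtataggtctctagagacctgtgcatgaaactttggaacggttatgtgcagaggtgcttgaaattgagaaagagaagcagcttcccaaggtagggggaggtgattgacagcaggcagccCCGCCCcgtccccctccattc

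GGGCGG was found 2 times before *Wif1*, from bases 197 and 82 before the start, and 1 time before each collagen gene, from base 30 before that start of *Col4a5* and base 21 before that of *Col4a6*. The gene spans that RefSeq lists reach further upstream, so that 49 bases of the *Col4a5* window and 19 of the *Col4a6* window lie inside the genes, with all 6 letters of the match for *Col4a5* and 4 for *Col4a6*. Of all 32851 windows of this length in the RefSeq table, 32.7% hold it on either strand. The letters CTTTGA, known from sites of LEF and TCF factors, and CAGCTG, an E-box of the kind that basic helix-loop-helix factors bind, were in 13.8% and 13.0% of windows and in none of these 3, which says only that these letters are not in the windows. The starts of *Col4a6* and *Col4a5* point away from each other, and both windows with the bases between them span 1342 bases.

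Of 17 Wnt genes with enough UMIs, *Wnt4*, *Wif1*, *Fzd1*, *Lef1* and *Nkd1* were above 0 in every set and *Wnt11* and *Sfrp1* below, beside 19.2% and 13.3% of all genes, while 10 had no common sign. Without cells of other lineages 15 could be counted, with 5 above 0 and 2 below (*Rspo3* and *Sfrp1*), since *Wnt11* was then at 0.06 (−0.56 to 0.67) in set 2. *Lef1*, a transcription factor of Wnt signalling, stood at log2 ratios of 2.59, 0.94 (−0.16 to 2.08) and 2.23. *Nkd1*, an inhibitor that Wnt signalling induces, stood at 1.74, 0.66 (−0.36 to 1.69) and 1.01. *Fzd1*, a Wnt receptor, was at 0.51, 0.52 and 1.01, with all 3 intervals above 0. *Sfrp1*, a relative of the rule's *Sfrp2*, went the other way, at −1.72, −0.71 and −1.52.

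*Bmp2* (chromosome 2, 133552159 to 133562896), a ligand of the BMP pathway, was past 2-fold higher in members of every set. Members had 523, 126 and 604 UMIs (170, 202 and 393 CPM) and the *Dpt* and *Lum* type 65, 93 and 224 (59.3, 94.3 and 118 CPM), and the intervals of both types did not overlap in any set. The ratios were 2.88-fold, 2.15-fold and 3.33-fold, and 2.24-fold, 2.18-fold and 3.35-fold without cells of other lineages. *Bmp2* was not past 2-fold in every set with summed UMIs in the score, at a log2 ratio of 0.83 in set 1, with thinned cells, at 0.92 in set 2, or without the limit on muscle genes. *Id1* and *Id3*, which encode dominant negative helix-loop-helix proteins and are known targets of BMP signalling, were higher too. *Id1* stood at 1.57, 0.30 and 1.24 and *Id3* at 1.47, 0.68 and 0.61, and the lower interval bound was above 0 in all 6 values. Among 10 genes of the BMP and TGF-beta axis, *Bmp2* and *Nbl1* were above 0 in every set and the receptors *Tgfbr3* and *Tgfbr1* and the BMP inhibitor *Chrdl1* below, which for the genes above is near the 19.2% of all genes (13.3% below). Without cells of other lineages the receptor *Bmpr2* was below 0 as well, which made 4.

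Basement membrane genes divided. Members were chosen in part by *Lamc3* and *Col15a1*, themselves genes of basement membranes, so these levels are not independent of the rule. *Col4a5* and *Col4a6*, the paired type IV collagen chains whose windows are shown above, were higher in members of every set. *Col4a5* had 59.0, 270 and 390 CPM in members against 21.9, 100 and 243, and *Col4a6* had 25.4, 57.8 and 110 against 9.12, 31.4 and 55.3. *Npnt*, an integrin ligand of basement membranes, stood at 1.08, 1.76 and 1.25. *Lama4*, a laminin chain of vessels and muscle, was lower, at −0.55, −0.92 and −0.65. *Col4a1* and *Col4a2*, the chains found in all basement membranes, were above 0 with all members, but in set 1 they turned to −0.20 and −0.22 without cells of other lineages, and to −0.75 and −1.02 without the 5 clusters. In all, 5 of 12 genes were above 0 in every set and 1 below, and 4 of 11 above and 2 below without cells of other lineages, beside 19.2% above and 13.3% below over all genes, and 17.9% and 13.5% without those cells. With cells thinned to 900 UMIs only 3 of these genes had enough UMIs to be counted, and 0 of the 3 were above 0 in every set.

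Genes of fibre-forming matrix ran lower in members. The *Dpt* and *Lum* type was itself chosen by genes that include the matrix genes *Col5a1*, *Lum* and *Dpt*, so this direction is not independent of the rule. Of 17 collagens and fibre-forming matrix genes 12 were below 0 in every set and 0 above, beside 13.3% and 19.2% of all genes, and 10 of 17 were below 0 and 1 (*Tnc*) above without cells of other lineages. Medians of the list were −0.81, −0.49 and −0.43. *Mfap5* (chromosome 6, 122513584 to 122529290), a microfibril protein, had 28.4, 135 and 273 CPM in members against 318, 511 and 757, which is 11.2-fold, 3.79-fold and 2.77-fold lower. Without the 5 clusters the log2 ratios of set 1 were larger, at −5.81 for *Mfap5* against −3.49 with all cells, at −2.27 for *Fn1* and at −2.80 for *Ugdh*. Of the 26 cells of the *Dpt* and *Lum* type left by this choice, 18 lay in the cluster led by *Mfap5* itself. With summed UMIs in the score *Mfap5*, *Ugdh* and *Dcn* were at −0.53, −0.99 and −0.53 in set 1. *Postn* (chromosome 3, 54359267 to 54391041), the matricellular protein periostin, was 4.68-fold, 3.72-fold and 3.58-fold lower. *Col6a3*, a chain of microfibrillar collagen, stood at −1.13, −0.68 and −1.08, *Col5a2* at −0.69, −0.82 and −0.58 and *Fn1*, fibronectin, at −1.09, −1.03 and −0.24 (−0.54 to 0.05).

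The summed rate of *Dcn* was lower in members of each set, at 1540, 2510 and 4301 CPM in members against 3574, 5902 and 8942. It was 2.32-fold, 2.35-fold and 2.08-fold lower, with intervals far from 0, although most cells of both types carried it. In set 1 the values per cell did not follow the sum. *Dcn* had a UMI in 79.3% of members against 71.0% of the *Dpt* and *Lum* type there, and the median deposited value was 2.36 against 1.79 natural log units. The 21 cells of the cluster led by *Mfap5*, of which 18 were of the *Dpt* and *Lum* type, had *Dcn* at 9786 CPM. *Ugdh*, whose enzyme makes the sugar nucleotide from which glycosaminoglycan chains are built, had 98.1, 400.1 and 538 CPM in members against 397, 801 and 1741. *Thbs3*, *Epyc*, *Spon2*, *Nrk*, *Lbp*, *Lgi2* and *Cd55* were further genes past 2-fold lower in every set with all members. The glial gene *Fabp7* and *Igf2*, described below, complete the 13. Without cells of other lineages *Epyc* and *Fabp7* had too few UMIs to be counted, *Spon2*, *Lgi2* and *Dcn* no longer passed in set 1, and *Dcn* was there at −0.93.

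**Figure D4:**
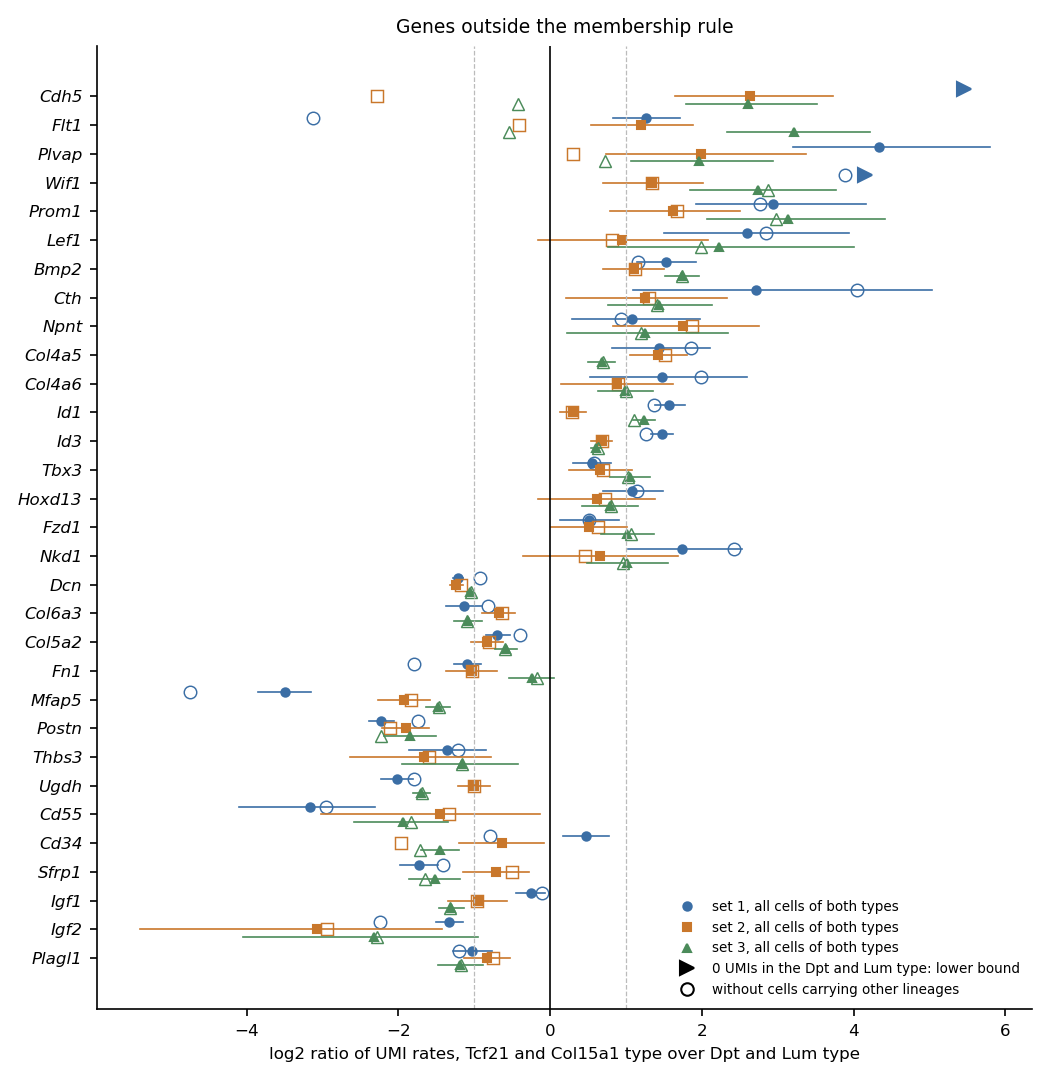
Log2 ratio of UMI rates, members over *Dpt* and *Lum* type, for genes outside the rule, in set 1 (circles), set 2 (squares) and set 3 (triangles), with 95% intervals for counting error. Large right-pointing triangles are lower bounds and open symbols leave out cells that carry markers of other lineages. *Flt1* crosses 0 between filled and open symbols in each set, while *Bmp2*, *Prom1* and *Postn* keep their side.

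Of 9 genes of the outer, adventitial type of fibroblast with enough UMIs, *Cd55*, *Sema3c*, *Procr*, *Fn1* and *Mfap5* were below 0 in every set, 0 were above and 4 had no common sign, beside 13.3% of all genes below and 19.2% above, but *Sema3c* was above 0 in set 1 without cells of other lineages. *Fn1* and *Mfap5* were also counted among the fibre-forming matrix genes. *Cd34*, a surface glycoprotein of adventitial fibroblasts and also of endothelium, was at 0.47, −0.63 and −1.45 with all members. Without cells carrying markers of other lineages *Cd34* was below 0 in every set, at −0.79, −1.97 and −1.71. *Cd55*, a complement inhibitor, had 15, 6 and 28 UMIs in members against 48, 26 and 133.

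Other genes past 2-fold higher in every set with and without cells of other lineages were *Prom1*, *Cth* and *Lmcd1*. *Prom1*, a membrane protein of cell protrusions, had 171, 37 and 57 UMIs in members against 8, 19 and 8, and was 7.64-fold, 3.09-fold and 8.81-fold higher, but in set 1 at a log2 ratio of −0.0018 with thinned cells. In set 3, however, epithelial cells had *Prom1* at 51.3 CPM against 37.1 in members. *Cth*, an enzyme that makes cysteine, stood at 2.71 (1.09 to 5.03), 1.25 and 1.43, and at 0.82 (−0.22 to 1.87) in set 2 with summed UMIs. *Lmcd1*, a LIM domain protein, stood at 2.05, 1.17 and 1.31.

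All 3 posterior Hox genes with enough UMIs were above 0 in every set, beside 19.2% of all genes, with and without cells of other lineages, although some intervals in sets 2 and 3 reached 0. Summed over the 10 posterior Hox genes with a row, members had 453, 130 and 216 CPM and the *Dpt* and *Lum* type 168, 90.2 and 147. Muscle-type cells had 280, 169 and 190 CPM, above members in set 2. When cells with fewer than 500 genes were left out, 0 of the Hox genes had enough UMIs to be counted. With a minimum of 50 UMIs 1 could be counted and was above 0, and with thinned cells 1 of 2 was. These factors specify position along the trunk and the urogenital tract. *Hoxd13*, the most posterior among them, had 374, 30 and 150 UMIs in members and stood at 1.09, 0.62 (−0.16 to 1.39) and 0.79. *Hoxa10* was at 2.09, 0.59 (−0.40 to 1.57) and 0.52 (−0.05 to 1.10). *Hoxd11* was at 0.60, 1.17 and 0.06 (−0.61 to 0.72). *Tbx3*, a T-box factor of budding organs, was at 0.55, 0.66 and 1.06, with intervals above 0. Without the 5 clusters *Hoxd13*, *Hoxd11* and *Tbx3* were at 2.41, 2.14 and 1.97 in set 1.

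Over 25 mesenchymal transcription factors 5 were above 0 in every set (*Prrx2*, *Tbx3*, *Nr2f2*, *Id1*, *Id3*), 4 below (*Prrx1*, *Plagl1*, *Nr4a2*, *Zfhx3*) and 16 of no common sign, which is near the 19.2% and 13.3% of all genes, with *Nr4a2* above 0 in sets 1 and 2 without cells of other lineages. *Plagl1*, an imprinted zinc finger factor, was at −1.02, −0.83 and −1.18. The paired homeobox relatives *Prrx1* and *Prrx2* lay on opposite sides, with *Prrx1* at −1.24, −0.46 (−0.95 to 0.01) and −0.20 (−0.51 to 0.10) and *Prrx2* at 0.69, 0.18 (−0.37 to 0.72) and 0.45.

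In the IGF axis the ligands were lower. Of 6 genes with enough UMIs, *Igfbp7* was above 0 in every set and 3 (*Igf1*, *Igf2*, *Igfbp5*) below, while 2 had no common sign. Over all genes 19.2% were above and 13.3% below. *Igf2*, the fetal growth factor, had 563, 3 and 5 UMIs in members against 505, 40 and 31, at log2 ratios of −1.33, −3.07 (−5.41 to −1.42) and −2.33 (−4.05 to −0.95). In set 1 *Igf2* was at −3.34 without the 5 clusters. *Igf1* stood at −0.26, −0.95 and −1.30, and in set 1 that value did not keep its sign under every way of scoring. *Igfbp7*, a secreted binding protein also known from vessels, was above 0 with all members, at 0.94, 0.32 and 0.49. It was at −0.30 (−0.60 to 0.02) in set 1 without the 5 clusters led by genes of other cell types. *Igfbp5* was at −0.28, −0.29 and −0.70, and at 0.67 in set 1 without those clusters.

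The remaining lists, to be read beside the same 19.2% above and 13.3% below over all genes, held few genes each. Of 14 matrix proteases and inhibitors 2 were above 0 in every set (*Timp3* and *Adamts9*, of which *Adamts9* turned below 0 in sets 1 and 3 without cells of other lineages) and 7 below, and all 3 complement genes were below, *Cd55* among them. Of 8 chemokines and cytokines 0 were above and 3 below (*Cxcl1*, *Cxcl13*, *Csf1*), of 7 FGF genes 2 were above (*Fgfr2*, and *Dusp6*, which was below 0 in set 1 without those cells) and 2 below, and of 6 guidance genes 2 were above (*Epha4*, *Plxna2*) and 2 below. *Hhip*, an inhibitor and target of Hedgehog ligands, was above 0, at 2.91 (1.30 to 5.22), 0.38 (−0.75 to 1.49) and 0.80. Of 4 PDGF and KIT genes *Pdgfra* was above 0 in every set and *Pdgfc* below, and 0 of 4 Notch, 0 of 4 retinoid and 0 of 3 other muscle genes had a common sign. Without cells of other lineages *Jag1* of the Notch genes and *Flna* of the muscle genes were above 0 in every set, and *Aldh1a3* of the retinoid genes below. Of 5 pleiotrophin and midkine genes 2 were below 0, and 0 without those cells.

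Immediate early genes, which dissociation is known to induce, were above 0 in every set for 6 of 16 (*Jun*, *Junb*, *Jund*, *Ier2*, *Hspb1*, *Gadd45a*) and below for *Zfp36*, beside 19.2% and 13.3% of all genes. Without cells of other lineages these 6 were above 0 too and 0 were below, but *Jun* was at −0.30 in set 3 when cells with fewer than 500 genes were left out. Their part in the other results was not tested. Of 7 mitosis genes 1 was above 0 and 1 below, and of 8 genes of DNA replication also 1 and 1. Without cells of other lineages these were 2 above and 0 below for mitosis, and 1 above and 2 below for replication. With cells thinned to 900 UMIs, at least 2 mitosis genes were seen in 9.83%, 2.51% and 2.67% of members and in 9.68%, 4.05% and 1.99% of the *Dpt* and *Lum* type, with overlapping intervals in each set. The reporter row *EGFP* had UMIs in set 1 alone, at 1013 CPM in members and 850 in the *Dpt* and *Lum* type.

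**Figure D5:**
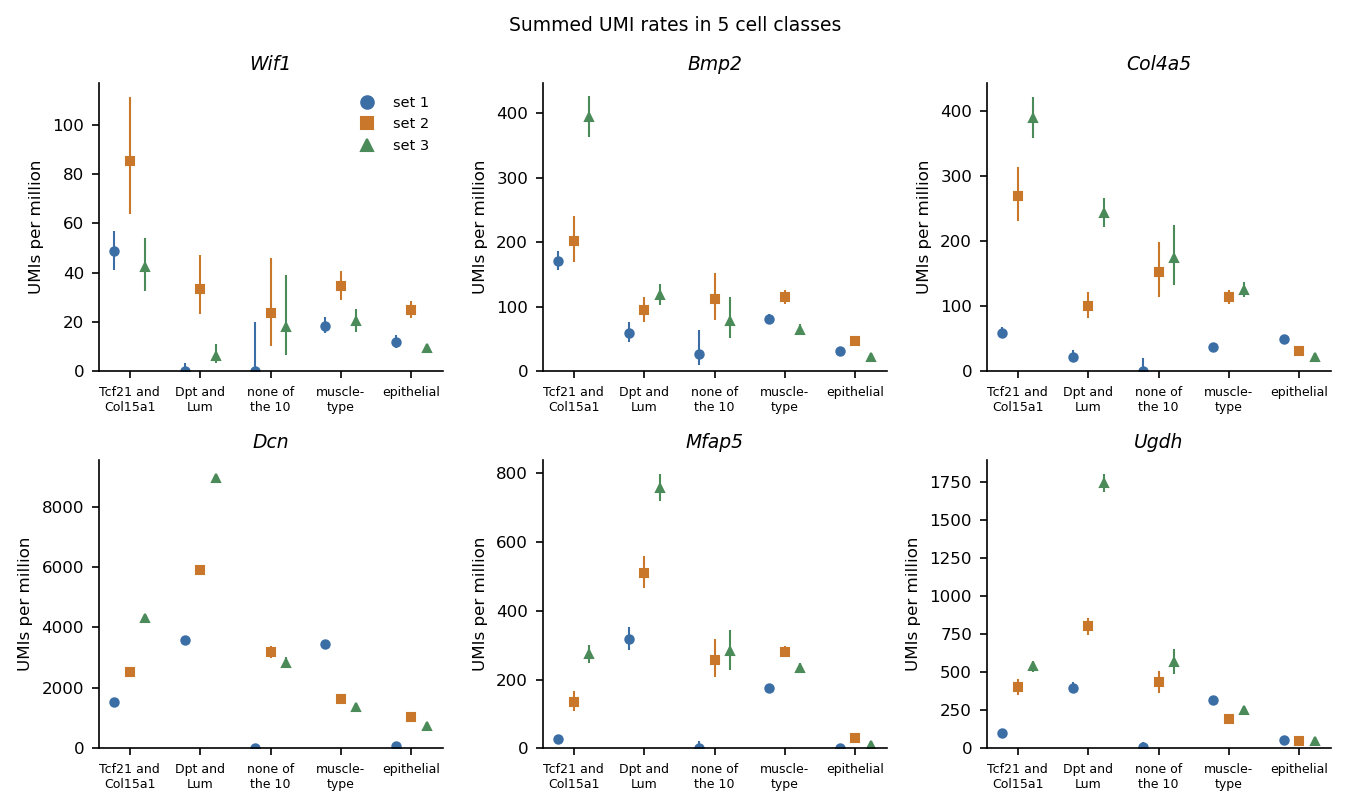
Summed UMI rates (CPM, 95% intervals for counting error) of 6 genes in members, the *Dpt* and *Lum* type, gated cells with none of the 10 markers, muscle-type cells and epithelial cells of sets 1, 2 and 3. *Wif1*, *Bmp2* and *Col4a5* were highest in members of each set, and *Dcn*, *Mfap5* and *Ugdh* were highest in the *Dpt* and *Lum* type, with overlapping intervals for *Dcn* in set 1 (muscle-type cells) and *Col4a5* in set 1 (epithelial cells).

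Across all 5 classes, members had the highest rate of *Bmp2* in each set. The muscle-type cells followed in sets 1 and 2, at 81.1 and 115 CPM, and in set 2 their interval overlapped those of the *Dpt* and *Lum* type and of gated cells with none of the 10 markers. *Col4a5* was highest in members too. In set 1 the epithelial cells were next, at 49.5 (44.5 to 54.8) CPM against 59.0 (50.7 to 68.3) in members, so there the intervals overlapped. For *Dcn* the order in sets 2 and 3 was the *Dpt* and *Lum* type, cells with none of the 10 markers in set 2 and members in set 3, and then the muscle-type and epithelial cells.

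Members also differed among themselves. Those with more of the 5 markers had more *Bmp2* in set 2, at 146, 220 and 392 CPM for members with 1, 2 and 3 or more markers. In set 3 the rates were 341, 367 and 452 CPM, with overlapping intervals at the ends (283 to 407 and 399 to 510). *Col4a5* followed at 206, 290 and 480 in set 2 and 313, 392 and 435 in set 3. *Dcn*, which was lower in members as a whole, was at 2396, 2304 and 3537 in set 2 and 3847, 4306 and 4573 in set 3. *Wif1* was at 57.6, 112 and 126 in set 2 and had no steady order in set 3, at 39.4, 46.8 and 39.5. *Postn* was at 224, 98.3 and 101 in set 2 and at 87.3, 63.5 and 36.1 in set 3. In set 1 *Postn* was lowest with 1 marker, at 92.8, 197 and 172, *Bmp2* had no steady order, at 148, 75.9 and 201, and *Col4a5* was at 4.49, 36.9 and 83.0. Members with more markers were also deeper, with medians of 1099, 1214 and 1657 UMIs in set 2 and 1146, 1355 and 1627.5 in set 3, and the part of depth was not tested. In set 1 the 26 members with 1 marker had *Dcn* at 264 CPM against 2079 in members with 3 or more, and *Cd34* at 278 against 90.3.

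Members were also split by whether they carried a given marker, here without cells carrying markers of other lineages. In set 1 the 18 members with *Lamc3* had more *Wif1* and *Bmp2* than the 128 without, at log2 ratios of 2.84 and 1.94, with *Lef1* at 1.76 and *Postn* at 2.23. In sets 2 and 3, with 11 and 207 such members, *Wif1* was at −0.82 (−6.15 to 1.73) and 0.27 (−0.60 to 1.08), *Bmp2* at 0.32 (−1.33 to 1.58) and 0.32 (0.06 to 0.59), and *Postn* at −1.38 (−6.70 to 1.14) and −0.47 (−1.56 to 0.50). In sets 2 and 3 members with *Col15a1* had less *Postn*, at −1.33 and −1.35, less *Mfap5*, at −0.69 and −0.54, and less *Ugdh*, at −0.65 and −0.46. The split by *Tcf21* in set 3 gave more *Mfap5*, at 0.30 (0.01 to 0.59), more *Ugdh*, at 0.41 (0.21 to 0.62), and *Postn* at 0.63 (−0.16 to 1.41). For sets 1 and 2 it gave *Mfap5* at 0.31 (−1.14 to 2.08) and −0.49 (−1.33 to 0.28). There *Ugdh* was at 0.11 (−0.32 to 0.57) and 0.26 (−0.16 to 0.67), and *Postn* at −1.11 (−1.42 to −0.78) and 0.30 (−0.47 to 1.02). In set 1 the split by *Col15a1* gave *Postn* at 1.02 and *Mfap5* at 1.20 (−0.04 to 2.47). The 7 members of set 1 without *Sfrp2* had 6 UMIs of *Dcn* among them, and the 139 members with it had 4033. Those 7 members had 0 UMIs of *Wif1*, *Col4a5* and *Cd34* but 62 of *Id3*, and whether they were fibroblasts was not tested.

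A few genes pointed in opposite directions between sets. *Wnt2*, a mesenchymal Wnt ligand, was lower in members of set 1, at −1.56 (−2.25 to −0.87), and higher in set 3, at 1.80 (1.24 to 2.38), with set 2 at 0.38 (−0.39 to 1.15). In set 1 *Wnt2* was at −0.80 without cells of other lineages. *Igfbp2*, an IGF binding protein, was at −0.80 in set 1 and 1.71 (0.88 to 2.61) in set 3. *Bgn*, the proteoglycan biglycan, was at −0.47 in set 1 and at 0.35 and 0.57 in sets 2 and 3. These differences between sets were not tested, since each set is 1 library.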

How the data were processed

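Single cell RNA was measured in 3 libraries. Per the labels, cells were dissociated with collagenase and TrypLE. The submitters' processing notes name Cell Ranger 3.1.0 and mm10, to which the methods add transgene sequences. The labels name v3 chemistry and the study's methods a v2 kit. By the methods the authors had filtered out multiplets, droplets without a cell and cells with much mitochondrial RNA, so no doublet caller was run. The deposited values are on a natural log scale, ln(1 + 10000 × UMIs / total UMIs of the cell). UMIs and totals were recovered from them, and all 11120293 values above 0 were whole UMIs within 0.05. The table, of which 9781 gene rows were used (52.7%, 50.4% and 49.4% of UMIs), was held only in part.

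UMIs were summed over cells per barcode set. Rates have exact Poisson intervals, shares exact Clopper-Pearson intervals, and log2 ratios exact intervals from the binomial split. A sum of 0 was set to 3 UMIs, which gives a bound, and for ranking so were sums of 1 and 2. The design had foreseen no test, and none was run. Clusters came from scanpy 1.11.5 (2000 features, 30 components, 15 neighbours, resolution 0.5) on scipy 1.17.1 and Python 3.11.15. RefSeq symbols (GRCm38.p6) matched 9273 rows. Named genes were those of 31 fixed lists and the 15 highest and 15 lowest by the ratio nearest 0 over the sets. Members and lists were chosen with earlier results of these data known. Genes that lead a cluster, the 12 neuronal genes, and values without cells of other lineages or without clusters led by genes of other cell types, were chosen after seeing the data. Steps were tested on simulated data.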

Additional observations from a re-analysis of the deposited data

Results flagged for a closer look

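Genes of the fixed lists were picked out when their ratio of members over the *Dpt* and *Lum* type was past 2-fold in opposite directions in different barcode sets, with intervals that excluded 0 or with a bound. These differences between sets were not tested, since each set is 1 library. *Wnt2* was at −1.56 in set 1 and 1.80 in set 3 on the log2 scale. *Lgr5*, a receptor of R-spondins, was at −1.04 in set 1 and 1.53 in set 2. *Anxa3* was at 1.11 in set 1 and −1.05 in set 2, and in set 1 it was at −2.39 without cells carrying markers of other lineages. The remaining genes mark other lineages. The leukocyte genes *C1qa*, *C1qb*, *C1qc*, *Cd52*, *Fcer1g* and *Tyrobp* were at 4.23, 4.44, 3.69, 2.32, 3.57 and 5.04 in set 1 (lower bounds except for *Tyrobp*) and at −4.67, −2.74, −4.12, −1.73, −1.42 and −1.40 in set 3, where 4 members of set 1, 3 of set 3 and 13 cells of the *Dpt* and *Lum* type of set 3 carried at least 2 leukocyte markers. *Rgs5*, a pericyte gene, was at −1.37 in set 1 and 1.64 in set 3.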

How the results depend on the processing

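No paired analysis was possible because the labels give 1 library to every tissue, so no replicate could be left out either. The share of members among gated cells was 48.1%, 23.6% and 33.5% in sets 1, 2 and 3 with cells thinned to 900 UMIs. In set 1 it was 78.2% without the clusters led by genes of other cell types. That alternative was chosen after seeing the data, as was leaving out cells with markers of other lineages. In sets 2 and 3 it was 16.5% and 31.2% when at least 2 marker UMIs were needed, 30.7% and 42.6% without cells under 500 genes, and 32.3% and 34.3% without the muscle limit. Scoring by summed UMIs gave 32.7% in set 3. The 19 higher and 13 lower genes became 0 and 4 with thinned cells (1345 genes tested instead of 3769) and 7 and 7 with a minimum of 50 UMIs (2330 genes tested). Lower genes numbered 5 with summed UMIs. Without the muscle limit 20 were higher and 19 lower (5053 genes tested), of which 8 and 9 were among the 19 and 13. Higher genes numbered 7 without cells of other lineages and 9 without the clusters, of which 5 and 6 were among the 19. Above 0 in every set were 0 of the 3 basement membrane and 1 of the 2 posterior Hox genes that could be counted with thinned cells, and the 1 Hox gene counted with a minimum of 50 UMIs. Without cells under 500 genes 0 Hox genes could be counted.

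Among markers measured in cells chosen by the other 4, without cells under 500 genes *Mmp2* was at 0.61 and *Sfrp2* at 0.42 (−0.17 to 1.02) in set 3. With at least 2 marker UMIs *Col15a1* was at 0.59 in set 1 and 1.45 in set 2. Without cells of other lineages *Col15a1* was at 0.93 and *Sfrp2* at 0.79 in set 1. Among genes named here whose interval with all members excluded 0 and which kept at least 20 UMIs, ratios that changed sign without cells of other lineages were those of *Flt1* in sets 1 and 2 (−3.13 and −0.40) and, in set 1, of *Anxa3* (−2.39), *Cd34* (−0.79), *Klf2* (0.17), *Nr4a2* (0.97), *Rspo3* (−0.016), *Sema3c* (1.96) and *Tnc* (0.20). Changes of sign among less certain ratios stand beside the genes above. Without the clusters *Flt1* was at −4.28 and −0.30 in sets 1 and 2, and in set 1 *Anxa3* was at −3.65, *Cd34* at −1.78, *Igfbp5* at 0.67, *Igfbp7* at −0.30, *Sema3c* at 0.33 and *Tnc* at 0.17. As differences of the mean deposited value in set 1, *Flt1* was at −0.0696, *Anxa3* at −0.0616, *Cd34* at −0.13, *Hspb1* at −0.0983, *Igf1* at 0.000535 and *Igfbp5* at 0.0388. With thinned cells, *Prom1* was at −0.0018, *Igfbp5* at 0.47, *Igfbp7* at −0.54, *Klf2* at 0.38 and *Nr4a2* at 0.71 in set 1, and *Fbn1* at 0.036 and *Klf2* at 0.080 in set 3. With summed UMIs *Igf1* was at 0.16 and *Klf2* at 0.24 in set 1. Without cells under 500 genes *Jun* was at −0.30 in set 3. The cause of these changes of sign was not tested. A single UMI decided membership of 41.8% and 15.6% of members in sets 2 and 3, and the part of depth was not tested.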
